A study of Mus musculus with 34 samples.

Results

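Astrocytes of the cortex mature over the weeks after birth under a set of transcription factors, and 8 genes for factors tied to mature cortical astrocyte identity were followed here. They are Rorb, Dbx2, Lhx2, Fezf2, Rfx4, Emx2, Hopx and Zbtb20, taken from the table by gene name, from a list drawn up with earlier results of these data known. All 8 were found among the 20613 genes with values in the deposited table, and all 8 were above 0 in every library. The 34 libraries were made from polyadenylated RNA of cortical astrocytes that had been purified magnetically, all from WT (wild-type) male mice, with no treatment named in the labels. Of the 9 ages, postnatal days 7 and 14 (P7, P14) and 18 months (18m) had 4 libraries each. P21, P28, P60 and 12m had 3 each, and 3m and 6m had 5 each. The labels do not say whether each library came from its own animal, so p-values measure only the spread between these libraries, which may be technical.

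A transcription factor binds DNA at chosen sites, or binds other factors that do, and sets which genes a cell transcribes. The families here are widely used in the developing brain: ROR nuclear receptors, homeodomain proteins, zinc finger proteins, BTB zinc finger proteins, winged-helix RFX proteins and the small homeodomain-only protein HOPX. Several of the factors first act in cortical progenitors (LHX2, EMX2), and ROR beta and FEZF2 are best known from layer 4 and deep-layer neurons, so transcripts of neurons in a library can bear on their values. In bulk RNA of an isolated population, fewer cells of a type and less RNA per cell cannot be told apart.

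Values are TPM, each gene's length-corrected share of all transcripts, scaled to a sum of 1000000 in each library, so that levels can be compared between genes. Markers of mature astrocytes were high at every age: the summed level of 20 such genes ran from 15539 TPM in the lowest library, at P7, to 37059 in the highest, at 6m. Transcripts of other cells were present too. The summed level of 13 neuronal genes ranged from 102 to 120 TPM at P7, from 404 to 785 at P60, from 217 to 700 at 3m, from 133 to 454 at 12m and from 95.8 to 210 at 18m. That of 13 oligodendrocyte genes ranged from 250 to 397 TPM at P7, from 1346 to 2490 at P60 and from 200 to 1491 at 18m. Erythroid genes summed to 36269 to 67753 TPM at P21, 10742 to 45498 at 12m and 8918 to 35087 at 18m, against 3529 to 9720 at P60. The number of genes listed at 0 formed 3 separate ranges: 4109 to 4819 for 14 libraries (all of P7, P14 and 18m with replicates 1 and 2 of 12m), then 2854 to 3523 for the 9 of P21, P28 and P60, and 1155 to 1704 for the 11 that remain (all of 3m and 6m with replicate 3 of 12m). Age and range cannot be told apart where P60 is compared with P7 or 18m with 3m, whereas P7, P14 and 18m share a range.

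The factors kept nearly the same order of level throughout. Hopx was highest, followed by Dbx2, Zbtb20, Lhx2, Rfx4, Rorb, Fezf2 and Emx2 at every age except 18m, where the mean of Fezf2 (23.8 TPM) lay above that of Rorb (17.1 TPM) with overlapping libraries. Over all 34 libraries the mean levels ran from 544 TPM for Hopx, rank 236 of all genes, and 425 TPM for Dbx2, rank 320, down to 15.6 TPM for Emx2, rank 6856. Neighbours in this order did not always separate: Hopx and Dbx2 overlapped at P7, P14, P21, 6m and 12m, and Rorb and Fezf2 at P7, P60, 6m and 18m. Zbtb20 and Lhx2 overlapped at 6m only.

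**Figure D1:**
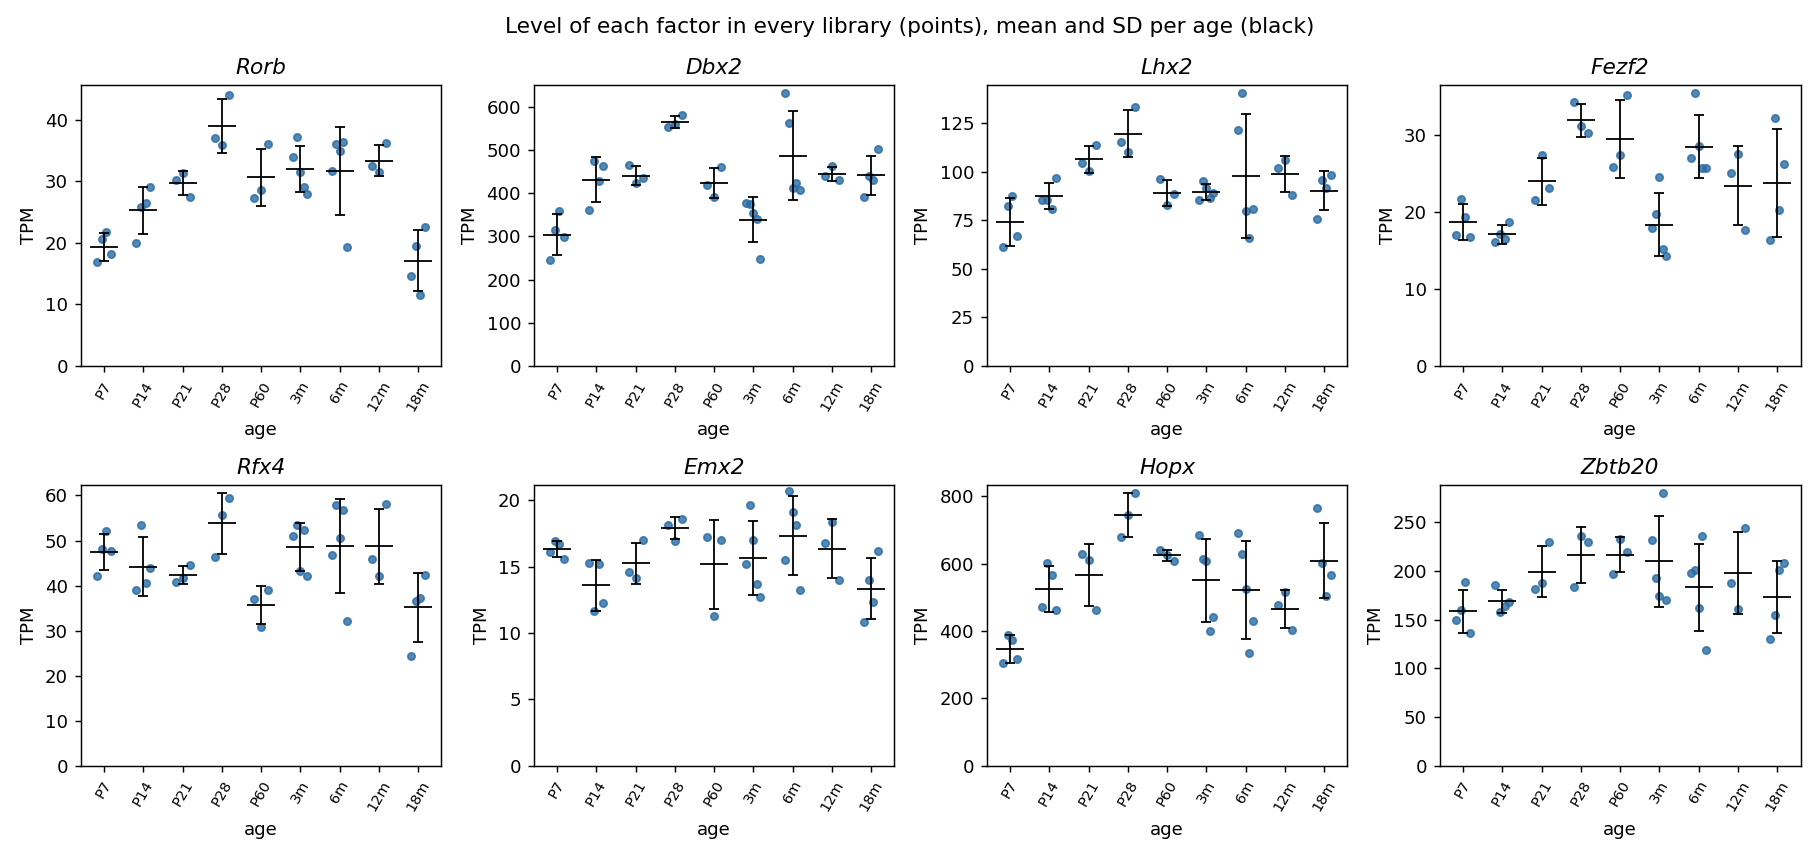
Level in TPM (vertical axis, starting at 0) of each of the 8 factors by age, with a point per library and the mean and SD per age in black. The 4 Rorb libraries of 18m lie between 11.6 and 22.6 TPM, below all 3 of 12m, and the 3 Hopx libraries of P28 lie above all 4 of P7.

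P28 was the age of the highest mean for 7 of the 8 factors. The exception was Zbtb20, whose means at P60 and P28 were both 217 TPM. Over the 14590 genes tested, 17.2% had their highest mean at P28. The lowest mean fell at P7 for Dbx2, Lhx2, Hopx and Zbtb20 (18.8% of genes tested), at P14 for Fezf2 (7.82%) and at 18m for Rorb, Rfx4 and Emx2 (26.9%). The highest age mean exceeded the lowest by 2.28-fold for Rorb, 2.15-fold for Hopx, 1.87-fold for Fezf2, 1.86-fold for Dbx2 and 1.61-fold for Lhx2. Rfx4 at 1.53-fold, Zbtb20 at 1.37-fold and Emx2 at 1.34-fold spanned less. These extremes describe the means and carry no test.

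**Figure D2:**
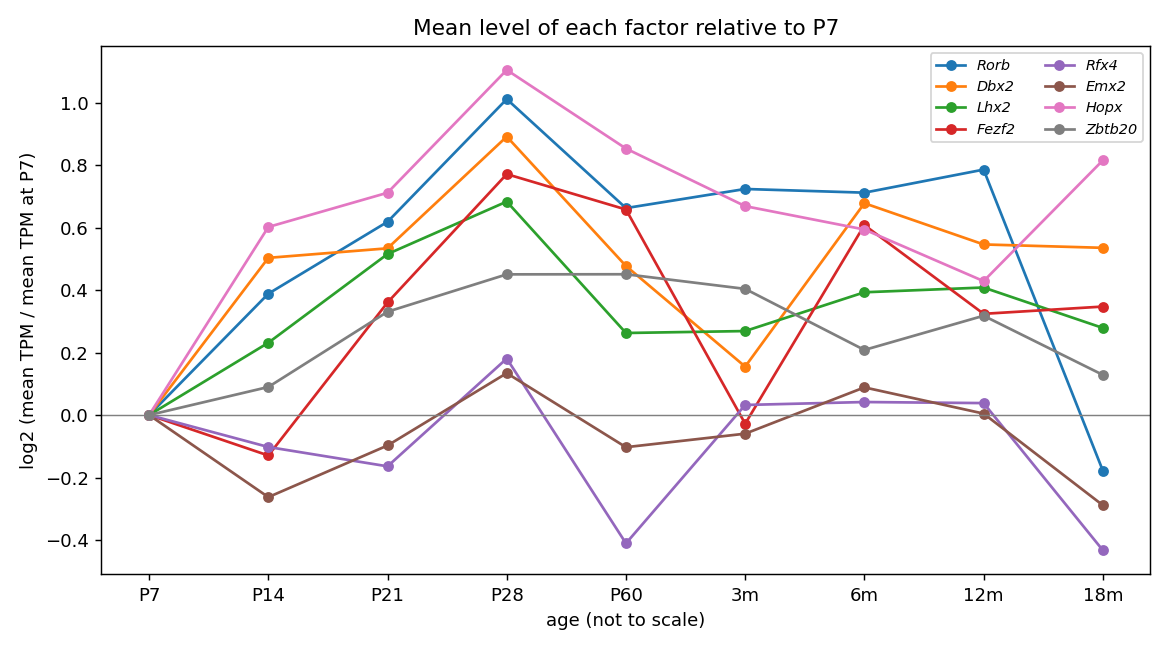
Log2 ratio of each factor's mean TPM at an age (horizontal axis, not to scale) to its mean at P7, 1 line per factor. Of the 8 lines, 7 are highest at P28, and the Rorb line drops below 0 at 18m while those of Hopx and Dbx2 stay above it.

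Changes were tested with limma on log2(TPM + 1) over all genes, a scale that understates changes of low genes, and a gene was called changed at a Benjamini-Hochberg adjusted p under 0.05. An F test over the 9 ages called 6 of the 8 factors, where 63.6% of all genes tested were called: Rorb (adjusted p = 4.77e-05), Dbx2 (adjusted p = 1.86e-04), Fezf2 (adjusted p = 4.89e-04), Hopx (adjusted p = 0.00157), Rfx4 (adjusted p = 0.0206) and Lhx2 (adjusted p = 0.0366). Emx2 (adjusted p = 0.179) and Zbtb20 (adjusted p = 0.197) did not pass.

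From P7 to P60, over postnatal maturation, 5 of the 8 factors rose and 1 fell: Hopx, Rorb, Fezf2, Dbx2 and Zbtb20 were higher, Rfx4 was lower, and Lhx2 and Emx2 did not pass the test. In this comparison 52.8% of all genes tested were called, 19.5% as higher and 33.3% as lower. The median log2 fold change was 0.47 over the 8 factors and -0.152 over all genes tested, and 2839 genes were called higher and 4858 lower. With libraries rescaled by median of ratios, the median of all genes was 0.007, 4116 genes were called higher and 3116 lower, and of the factors 6 were higher and 0 lower, with Lhx2 gained (log2 fold change 0.45, limma adjusted p = 0.0438) and Rfx4 lost (-0.23, adjusted p = 0.133). Neuronal and oligodendrocyte transcripts moved with this comparison: 10 of 13 neuronal and 10 of 13 oligodendrocyte genes rose. So did 6 of 12 microglial and 6 of 10 ependymal and choroid plexus genes, while 10 of 10 proliferation, 7 of 8 fibroblast and meningeal and 6 of 10 endothelial genes fell. Of 12 genes of radial glia and immature astroglia, 11 fell and 1 rose (median log2 fold change -1.081). The part of these other lists in the factors' values was not tested. With the means of the neuronal and oligodendrocyte lists as covariates, only Zbtb20 was called (0.76 ± 0.26 SE, limma adjusted p = 0.0297). In that fit 5 factors had an unadjusted limma p under 0.05, and 3630 of all genes were called, against 7697 without covariates. Both means were higher in every P60 library than in every P7 library, so this fit separates them from age only weakly.

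**Figure D3:**
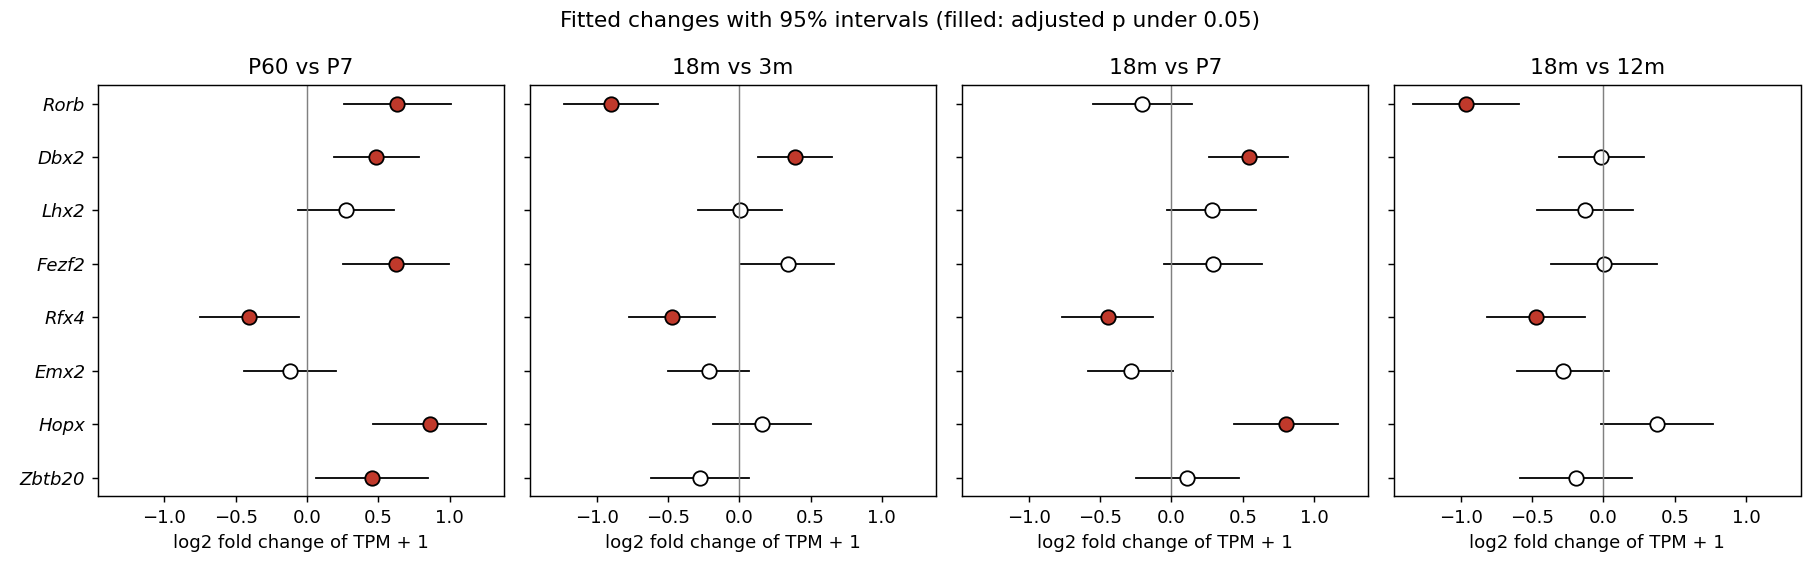
Log2 fold change of TPM + 1 (horizontal axis) with its 95% interval for the 8 factors in 4 comparisons, filled where the limma adjusted p is under 0.05. Rorb lies to the right of 0 for P60 vs P7 and to the left for 18m vs 3m and 18m vs 12m, and Hopx and Dbx2 lie to the right for 18m vs P7.

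In aging, from 3m to 18m, 3 of the 8 factors changed: Rorb and Rfx4 fell and Dbx2 rose. Of all genes tested 37.5% were called, 4.16% as higher and 33.4% as lower, so the share of factors called is that of the background. The median log2 fold change was -0.104 over the factors and -0.24 over all genes. After rescaling these medians were 0.138 and -0.023, 2 factors were called higher (Dbx2 and Fezf2) and 1 lower (Rorb), and 2562 of all genes were called higher and 2750 lower. Neuronal transcripts moved with this comparison, as 9 of 13 neuronal genes fell with none rising. Without rescaling, 6 of 9 deep-layer neuron genes (median log2 fold change -0.71) and 5 of 7 upper-layer and layer 4 neuron genes (-0.797) fell. So did 5 of 6 immature neuron genes, and none of these 3 lists had a gene called higher. Of the other lists, 9 of 10 proliferation, 4 of 12 microglial and 3 of 8 fibroblast and meningeal genes fell and 4 of 7 oligodendrocyte precursor genes rose, and the part of these in the factors' values was not tested. Between 18m and P7, 3 of 8 factors were called (Hopx and Dbx2 higher, Rfx4 lower) against 29.6% of all genes, 4.67% as higher and 24.9% as lower. After rescaling 5 factors were higher and 0 lower, where 10.9% of all genes were called higher and 9.1% lower. In the 8 steps between neighbouring ages, 7 of 64 tests passed, against 8.24% of all gene-by-step tests: Hopx and Dbx2 from P7 to P14, Fezf2 from P60 to 3m, Fezf2 and Dbx2 from 3m to 6m, and Rorb and Rfx4 from 12m to 18m. Over all genes, 3.28% were called higher from P7 to P14, 1.93% lower from P60 to 3m, 2.07% higher from 3m to 6m and 18.6% lower from 12m to 18m.

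Hopx, an atypical homeodomain protein that does not bind DNA itself and marks outer radial glia and astrocytes, rose early and remained above its P7 level at 18m. It lies on chromosome 5 (77086988 to 77115121, minus strand, GRCm38). The RefSeq sequence upstream of its more distal start site (GRCm38.p6, chr5:77115124-77115373, minus strand) is shown because it is the only one of the sequences printed here with more than 1 match to a searched motif. Capitals mark GTTGCC, part of the X-box bound by RFX proteins, found 153 to 148 bases before the start and, on the other strand, 102 to 97 bases before it.
Hopx: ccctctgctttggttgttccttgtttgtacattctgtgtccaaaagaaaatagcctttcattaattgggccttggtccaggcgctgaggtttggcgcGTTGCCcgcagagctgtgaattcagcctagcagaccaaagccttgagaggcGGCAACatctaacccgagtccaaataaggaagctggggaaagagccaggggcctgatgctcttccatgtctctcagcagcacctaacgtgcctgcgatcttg
Of 32851 mouse promoter windows of the same length, 10.4% hold GTTGCC on either strand, so a match here is a description and not a binding site.

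The 4 P7 libraries held Hopx at 306, 389, 373 and 317 TPM, and the 4 of P14 at 471, 602, 565 and 463 TPM. Every P14 library lay above every P7 library. The mean was 1.52-fold higher at P14 (log2 fold change 0.60 ± 0.18 SE, limma adjusted p = 0.0298, 11.8% of genes called between these ages), and the call was lost without P7 replicate 1 (adjusted p = 0.0829), P7 replicate 4 (0.0837), P14 replicate 2 (0.0908) or P14 replicate 3 (0.0728), and with neuronal and oligodendrocyte covariates (0.0899). At P60 the libraries held 641, 626 and 609 TPM, 1.81-fold above P7 with no overlap (0.86 ± 0.19 SE, limma adjusted p = 8.59e-04). With the neuronal and oligodendrocyte covariates the P60 difference was 0.68 (adjusted p = 0.0744). The 18m libraries held 764, 602, 504 and 567 TPM, again all above P7, for a 1.76-fold higher mean (0.80 ± 0.18 SE, limma adjusted p = 0.00149). P7, P14 and 18m lie in the same range of genes at 0, and within the libraries of that range the adjusted p was 3.18e-04 for 18m vs P7. Leaving out any single library kept both the P60 and the 18m difference from P7 past the threshold. The difference between 18m and 3m was not called (0.16 ± 0.17 SE, 95% interval -0.19 to 0.505).

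Dbx2, a homeodomain factor known from progenitors of the neural tube and expressed in astrocytes, also rose early. It lies on chromosome 15 (95623563 to 95655960, minus strand). Its P7 libraries held 245, 316, 359 and 298 TPM and its P14 libraries 361, 474, 427 and 463 TPM, a narrow separation between 359 and 361. The mean was 1.42-fold higher at P14 (0.51 ± 0.13 SE, limma adjusted p = 0.0175), and the call was lost without P7 replicate 1 (adjusted p = 0.0724), P14 replicate 2 (0.0592) or P14 replicate 4 (0.0553). At P60 the libraries held 419, 391 and 461 TPM, 1.39-fold above P7 (0.49 ± 0.15 SE, limma adjusted p = 0.00703, and 0.0689 with neuronal and oligodendrocyte covariates).

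In adult life Dbx2 was lowest at 3m and higher again at 6m. The 3m libraries held 377, 375, 353, 341 and 248 TPM and the 6m libraries 631, 563, 412, 423 and 406 TPM, with every 6m library above every 3m library. The mean was 1.44-fold higher at 6m (0.51 ± 0.12 SE, limma adjusted p = 0.0102, where 9.32% of genes were called), within a single range of genes at 0. Fitted with those ages alone the adjusted p was 0.13, and with deep-layer and upper-layer neuron covariates it was 0.646. The 18m libraries, at 392.1, 439, 431 and 503 TPM, also lay above all 5 of 3m (1.30-fold, 0.39 ± 0.13 SE, limma adjusted p = 0.0176). That call was lost without 3m replicate 5, the lowest library (0.28, adjusted p = 0.0699), and without 18m replicate 4 (0.32, adjusted p = 0.0635). It was also lost with neuronal and oligodendrocyte covariates (0.22, adjusted p = 0.336), with the number of genes at 0 (0.30, adjusted p = 0.599) and with layer-neuron covariates (0.15, adjusted p = 0.949). Against P7, 18m was 1.45-fold higher (0.54 ± 0.13 SE, limma adjusted p = 0.00381) and remained past the threshold without any single library.

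Rorb, which encodes the nuclear receptor ROR beta, rose over maturation and fell between 12m and 18m, to levels that overlapped those of P7. It lies on chromosome 19 (18930605 to 19111196, minus strand). Its distal start site (GRCm38.p6, chr19:19111197-19111446, minus strand) is shown because Rorb had the largest fall of the 8 between 3m and 18m, and it holds none of 5 short motifs searched on both strands: AGGTCA (bound by ROR receptors), TAATTA (homeodomain), TTGGCA (NFI), ACAAAG (SOX) and GTTGCC. Their shares among all 32851 windows are 14%, 4.84%, 12.3%, 16.5% and 10.4%.
Rorb: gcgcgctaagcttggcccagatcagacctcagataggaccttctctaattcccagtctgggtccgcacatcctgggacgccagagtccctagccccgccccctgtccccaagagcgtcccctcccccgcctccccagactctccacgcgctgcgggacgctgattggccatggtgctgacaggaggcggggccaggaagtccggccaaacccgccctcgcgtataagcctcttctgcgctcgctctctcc
With the following 50 bases it has 63.7% G and C and 20 CpG, against medians of 52.7% and 7 over all promoters in the RefSeq table.

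The 4 P7 libraries held Rorb at 16.8, 20.6, 21.8 and 18.2 TPM and the 3 P60 libraries at 27.3, 28.6 and 36.0 TPM. All P60 libraries lay above all P7 libraries, 1.58-fold in the means (0.63 ± 0.18 SE, limma adjusted p = 0.00572). The call held without any single library, and was lost with neuronal and oligodendrocyte covariates (0.55 ± 0.26 SE, adjusted p = 0.128), with the number of genes at 0 as a covariate (0.52, adjusted p = 0.0881) and with layer-neuron covariates (0.51, adjusted p = 0.176). Of 7 upper-layer and layer 4 neuron genes tested, 4 rose and 1 fell from P7 to P60 (median log2 fold change 0.898). Of all genes tested, 19.5% were called higher. The summed level of 8 such neuron genes ranged from 46.6 to 63.7 TPM at P7 and from 69.2 to 93.5 TPM at P60. From P60 to 12m the age means of Rorb stayed between 30.6 and 33.3 TPM.

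At 12m the libraries held Rorb at 32.4, 31.4 and 36.2 TPM, and at 18m at 14.7, 19.5, 11.6 and 22.6 TPM. No 18m library reached the lowest of 12m, and the mean was 1.95-fold lower (-0.96 ± 0.18 SE, limma adjusted p = 0.00251, where 18.6% of genes tested were called lower and 20.2% in either direction). The difference was -0.90 ± 0.21 SE (adjusted p = 0.0115) within libraries of a single range of genes at 0, -0.72 after rescaling (adjusted p = 0.00939) and -0.94 with neuronal and oligodendrocyte covariates (adjusted p = 0.00433). Fitted with those ages alone the adjusted p was 0.0749, and with deep-layer and upper-layer neuron covariates, chosen after the data were seen, it was 0.183 with a difference of -0.79. The upper-layer and layer 4 neuron genes summed to 58.6 to 80.8 TPM at 12m and 35.3 to 59.1 TPM at 18m.

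Against 3m, whose libraries held Rorb at 33.9, 37.2, 31.6, 29.1 and 27.9 TPM, 18m was 1.87-fold lower with no overlap (-0.90 ± 0.16 SE, limma adjusted p = 1.79e-04), and leaving out each library in turn kept the adjusted p at 0.00157 or below. The number of genes at 0, which separates these ages completely, took the difference to -0.70 (adjusted p = 0.255) as a covariate, and the layer-neuron covariates to -0.62 (adjusted p = 0.562). Against P7 the difference at 18m was -0.20 ± 0.17 SE (95% interval -0.55 to 0.14, limma adjusted p = 0.366), with overlapping libraries and its sign turned by rescaling (0.05).

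Fezf2, the zinc finger factor that specifies corticospinal neurons, was higher at P60 than at P7 and dipped at 3m. It lies on chromosome 14 (12342094 to 12348189, minus strand). Its libraries held 17.0, 21.7, 19.4 and 16.7 TPM at P7 and 25.8, 27.5 and 35.2 TPM at P60, 1.58-fold higher with no overlap (0.63 ± 0.18 SE, limma adjusted p = 0.00579). With neuronal and oligodendrocyte covariates the difference was 0.10 ± 0.22 SE (adjusted p = 0.775), and with layer-neuron covariates 0.56 (adjusted p = 0.135). Of 9 deep-layer neuron markers, 3 rose (Bcl11b, Tbr1 and Hs3st4) and none fell, with a median log2 fold change of 0.005. Bcl11b rose from 0.5 TPM at P7 to 4.24 TPM at P60, while Crym, which was not called, held 170 TPM of a summed deep-layer level of 221 TPM at P7.

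The 3m libraries held Fezf2 at 17.9, 19.8, 24.5, 15.2 and 14.3 TPM and the 6m libraries at 27.0, 35.5, 28.6, 25.7 and 25.7 TPM. All 3m libraries lay below all those of P60 and of 6m. The fall from P60 (-0.67 ± 0.17 SE, limma adjusted p = 0.0132, where 10.2% of genes were called) crosses ranges of genes at 0, was -0.42 with that number as a covariate (adjusted p = 0.319) and lost its call without P60 replicate 3 (-0.54, adjusted p = 0.104). The rise to 6m (0.62 ± 0.15 SE, limma adjusted p = 0.0121) held without any single library, and was lost when fitted with those ages alone (adjusted p = 0.093) or with layer-neuron covariates (0.70, adjusted p = 0.32). The comparison of 18m with 3m was not called (0.34 ± 0.16 SE, limma adjusted p = 0.092), though it passed after rescaling (0.58, adjusted p = 0.00802), without 3m replicate 3 (0.45, adjusted p = 0.0302) and without 18m replicate 1 (0.50, adjusted p = 0.0247).

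Rfx4, a winged-helix factor needed for cilia and for patterning of the neural tube, was lower at P60 and at 18m by calls that rested on the scaling and on single libraries. It lies on chromosome 10 (84756062 to 84906538, plus strand). Its second RefSeq start site (GRCm38.p6, chr10:84837898-84838147, plus strand) is shown because it holds the only AGGTCA match among the factors' promoters, in capitals as TGACCT, 179 to 174 bases before the start and read on the other strand.
Rfx4: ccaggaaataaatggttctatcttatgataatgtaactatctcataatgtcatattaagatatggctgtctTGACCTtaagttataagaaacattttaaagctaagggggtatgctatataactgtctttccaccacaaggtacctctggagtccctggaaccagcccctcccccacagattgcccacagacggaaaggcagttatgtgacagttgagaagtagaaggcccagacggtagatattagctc
This window with the next 50 bases has 42% G and C and 3 CpG.

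The P7 libraries held Rfx4 at 42.1, 48.1, 52.0 and 47.6 TPM and the P60 libraries at 37.1, 30.8 and 39.1 TPM, all lower, for a 1.33-fold lower mean (-0.40 ± 0.17 SE, limma adjusted p = 0.0446). The call was lost without P7 replicate 2 (adjusted p = 0.0743), 3 (0.101) or 4 (0.0708), or P60 replicate 1 (0.0696) or 2 (0.188). The 18m libraries held 24.5, 36.5, 37.3 and 42.3 TPM, the first standing lowest of all 34. That library, 18m replicate 1, had 12512 genes at 1 TPM or more, the fewest of the 34. It was also the lowest of 18m for Dbx2, Lhx2, Fezf2, Emx2 and Zbtb20, and the highest for Hopx. Rfx4 was lower at 18m than at 3m (-0.47 ± 0.15 SE, limma adjusted p = 0.0133), P7 (-0.45 ± 0.16 SE, 0.0318) and 12m (-0.47 ± 0.17 SE, 0.0451). Without 18m replicate 1 the adjusted p rose to 0.111, 0.174 and 0.233. The 18m vs P7 call was also lost without P7 replicate 2 (0.0631), 3 (0.0836) or 4 (0.0604), and the 18m vs 12m call without 12m replicate 1 (0.08), 12m replicate 3 (0.219) or 18m replicate 2 (0.0549). The P60 call was lost with neuronal and oligodendrocyte covariates (-0.46, adjusted p = 0.163). The 18m vs 3m difference was -0.02 with the number of genes at 0 (adjusted p = 0.978) and 0.10 with layer-neuron covariates. After rescaling the 18m differences were -0.23, -0.19 and -0.23 and none passed (adjusted p = 0.108, 0.282 and 0.21).

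Zbtb20, Lhx2 and Emx2 had few or no calls. Zbtb20, a BTB zinc finger repressor known from the hippocampus and from astrocyte formation, lies on chromosome 16 (42875881 to 43642602, plus strand). Its libraries held 150, 160, 189 and 136 TPM at P7 and 197, 233 and 219 TPM at P60, with no overlap and a 1.37-fold higher mean (0.46 ± 0.19 SE, limma adjusted p = 0.0462). That call was lost without P7 replicate 1 (adjusted p = 0.0851), 2 (0.0677) or 4 (0.117), or any P60 replicate (0.0557 to 0.134), and with no filter on low genes (0.0587). It was 0.12 with the number of genes at 0 as a covariate (adjusted p = 0.7) and 0.17 with layer-neuron covariates (adjusted p = 0.696). Its 18m values, 130 to 208 TPM, overlapped those of both P7 and 3m and no difference was called.

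Lhx2, a LIM-homeodomain factor that sets cortical identity in progenitors, lies on chromosome 2 (38339281 to 38369733, plus strand). It ran from 61.1 to 87.3 TPM at P7, from 110 to 133 TPM at P28, from 82.9 to 96.2 TPM at P60 and from 75.6 to 98.4 TPM at 18m. The differences were 0.27 ± 0.16 SE for P60 vs P7 (limma adjusted p = 0.162) and 0.28 ± 0.15 SE for 18m vs P7 (adjusted p = 0.152), and both passed after rescaling (0.45, adjusted p = 0.0438, and 0.54, adjusted p = 0.0229). Its widest spread was at 6m, from 65.7 to 141 TPM.

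Emx2, a homeodomain factor that patterns the cortex, had the lowest mean of the 8 at every age. Its libraries overlapped those of Fezf2 at P7, 3m and 12m and those of Rorb at 18m. Emx2 lies on chromosome 19 (59458372 to 59465357, plus strand). Its age means stayed between 13.4 TPM at 18m and 17.9 TPM at P28, and its libraries ranged from 10.8 to 20.7 TPM. The difference between P60 and P7 was -0.12 ± 0.16 SE (95% interval -0.44 to 0.20, limma adjusted p = 0.536), and between 18m and P7 -0.28 ± 0.15 SE (95% interval -0.58 to 0.02, adjusted p = 0.136). Antisense genes lie opposite Emx2, Hopx, Lhx2 and Zbtb20 in the GENCODE annotation and are not analysed here. The labels do not state counting by strand, without which reads of a gene and its antisense partner cannot be told apart.

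Close relatives of the factors were called in both directions over maturation and only as lower in aging. Of 10 paralogs tested, 3 rose and 4 fell from P7 to P60 (5 and 4 after rescaling), and 5 fell with none rising from 3m to 18m (median log2 fold change -0.436, against 33.4% of all genes called lower). After rescaling 3 fell and none rose from 3m to 18m, where 18.8% of all genes were called lower. Rora, the ROR alpha gene, was named after its values were seen. P7 libraries averaged 43.4 ± 5.22 TPM (SD, n = 4) and P60 libraries 68.7 ± 4.94 (SD, n = 3), a rise of 0.66 ± 0.20 SE (limma adjusted p = 0.00928, and 0.221 with neuronal and oligodendrocyte covariates). The mean of 77.8 ± 5.02 (SD, n = 3) for 12m was followed by 45.5 ± 12.7 (SD, n = 4) for 18m, a difference of -0.81 ± 0.20 SE (limma adjusted p = 0.00874). The adjusted p of this fall was 0.058 without 18m replicate 1, 0.0822 with those ages alone and 0.395 with layer-neuron covariates.

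**Figure D4:**
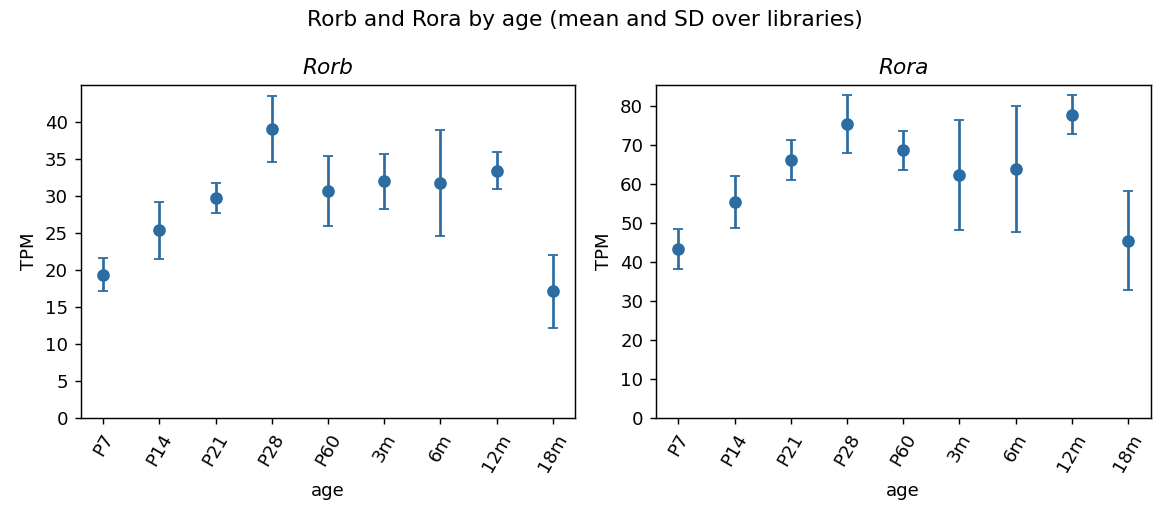
Mean and SD in TPM (vertical axes from 0, each with its own scale) of Rorb and Rora by age. Rorb and Rora have lower means at 18m (17.1 and 45.5 TPM) than at 12m (33.3 and 77.8 TPM).

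Emx1, the sister gene of Emx2, fell where Emx2 did not pass the test. P7 libraries averaged 6.56 ± 0.675 TPM (SD, n = 4) against 2.29 ± 0.591 (SD, n = 3) for P60 (-1.21 ± 0.26 SE, limma adjusted p = 5.37e-04). The 3m libraries averaged 5.96 ± 1.70 TPM (SD, n = 5) against 2.62 ± 1.06 (SD, n = 4) for 18m (-0.95 ± 0.23 SE, limma adjusted p = 0.00184). The difference between the 2 genes was not tested. Rfx5, a regulator of MHC class II genes, was lower at P60 (-0.59 ± 0.18 SE, limma adjusted p = 0.00803, and 0.0623 without P60 replicate 2). Rfx3, a factor of ciliated cells, was lower at 18m than at 3m (-0.58 ± 0.16 SE, adjusted p = 0.00526). Lhx9, the close relative of Lhx2, was also called lower (-0.68, adjusted p = 0.00689) at means of 0.715 and 0.065 TPM. Dbx1 and Fezf1, the sister genes of Dbx2 and Fezf2, were at or near 0 at every age and were not tested.

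Markers of mature astrocytes rose more often than they fell over maturation, 10 against 4 of 20 from P7 to P60 (median log2 fold change 0.459), where rescaling gave 11 against 3. From 3m to 18m, 10 fell and 4 rose (median -0.32), and after rescaling 6 fell and 5 rose. Of 28 other transcription factors of astrocytes, 4 rose and 14 fell from P7 to P60 (median log2 fold change -0.324), and after rescaling 7 rose and 11 fell. From 3m to 18m 2 rose and 8 fell (median -0.174), a balance that rescaling turned to 7 higher and 5 lower (median 0.069). Over all genes tested, 19.5% were called higher and 33.3% lower from P7 to P60, and 4.16% and 33.4% from 3m to 18m. After rescaling these shares were 28.2% and 21.4% from P7 to P60, and 17.6% and 18.8% from 3m to 18m. Olig2, of the oligodendrocyte lineage, fell over maturation, with means of 74.9 ± 5.20 and 23.0 ± 8.64 TPM (SD, n = 4 and n = 3; -1.72 ± 0.31 SE, limma adjusted p = 1.58e-04). Sox2, a stem cell factor kept in astrocytes, and Id1, an inhibitor of bHLH factors, fell too (-0.80, adjusted p = 8.26e-04, and -1.13, adjusted p = 4.21e-04), Id1 no longer with neuronal and oligodendrocyte covariates (-0.31, adjusted p = 0.379). From 3m to 18m Nfix, of the NFI family, fell (-1.18 ± 0.18 SE, limma adjusted p = 2.29e-05), as did Prdm16 (-0.54, adjusted p = 0.00175), and the Notch target Hes1 rose (0.72 ± 0.12 SE, adjusted p = 1.29e-04). With layer-neuron covariates the adjusted p of Nfix, Prdm16 and Hes1 was 0.689, 0.756 and 0.617, and the calls of Rora, Rfx3, Lhx9, Emx1 and the clock and ciliary genes named here for 18m vs 3m were lost too. With the number of genes at 0 as a covariate all of these calls except that of Hes1 (adjusted p = 0.0426) were lost.

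Genes on which the factors are known to act were read from fixed lists. ROR receptors activate and REV-ERB receptors repress a set of clock genes. Of 7 tested, 3 rose and 3 fell from P7 to P60, where 19.5% of all genes were called higher and 33.3% lower. From 3m to 18m 3 of the 7 fell, where 33.4% of all genes were called lower. Arntl, the clock activator BMAL1, fell over maturation, with means of 30.0 ± 1.35 and 13 ± 1.02 TPM (SD, n = 4 and n = 3; -1.15 ± 0.22 SE, limma adjusted p = 2.69e-04) and was lower at 18m than at 3m (-0.83 ± 0.19 SE, adjusted p = 0.00183). Its partner Clock fell in both comparisons (-0.91, adjusted p = 5.48e-04, and -0.69, adjusted p = 0.0026). Nr1d1, the REV-ERB alpha gene, rose from 70.1 ± 15.1 to 216 ± 17.1 TPM (SD, n = 4 and n = 3) between P7 and P60 (1.63 ± 0.41 SE, limma adjusted p = 0.00227, and 0.245 with the number of genes at 0), and Nr1d2 was lower at 18m than at 3m (-0.71, adjusted p = 0.00745, and 0.0571 without 18m replicate 1). Clock genes follow the time of day, which the labels do not give.

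RFX factors switch on genes of the cilium. Of 15 such genes, 2 rose from P7 to P60 (Dync2h1, a dynein of ciliary transport, and Tmem107, of the transition zone), and 10 rose after rescaling, where 28.2% of all genes were called higher. Markers of ependymal and choroid plexus cells, which carry cilia, moved with this comparison: 6 of 10 rose (median log2 fold change 1.284), and their summed level ranged from 244 to 547 TPM at P7 and from 900 to 2119 TPM at P60, highest in P60 replicate 1. Their part in the result was not tested. Tmem107 (0.70 ± 0.29 SE, limma adjusted p = 0.0417) fell to 0.35 (adjusted p = 0.347) without P60 replicate 1 and lost its call without P7 replicate 1, 2 or 3 or P60 replicate 2 (adjusted p = 0.0525 to 0.0826). Dync2h1 (0.47 ± 0.19 SE, limma adjusted p = 0.0371) lost its call without P7 replicate 2 or 4 or any P60 replicate (adjusted p up to 0.107). From 3m to 18m 10 of the 15 fell and none rose, where 33.4% of all genes were called lower. After rescaling 3 of the 15 fell, where 18.8% of all genes were called lower. No ependymal and choroid plexus marker was called with or without rescaling. Before rescaling their median log2 fold change was -0.401, against -0.387 for the 15 ciliary genes. The summed level of these markers ranged from 558 to 2197 TPM at 3m and from 476 to 1148 TPM at 18m. Their part in the fall of the ciliary genes was not tested. Dync2h1 went from 11.9 ± 1.84 TPM (SD, n = 5) to 6.40 ± 1.59 (SD, n = 4; -0.82 ± 0.16 SE, limma adjusted p = 4.61e-04), and Bbs1 and Wdr35, of ciliary cargo transport, were lower by 0.67 and 0.64 on the log2 scale (adjusted p = 0.00391 and 0.0094). Wdr35 reached adjusted p = 0.0651 without 18m replicate 1, and its P60 difference from P7 was not called (0.50, adjusted p = 0.0511).

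The genes most like each factor were taken as the 3 with the highest Pearson correlation of log2(TPM + 1) over the 34 libraries, among the 10220 genes that averaged 5 TPM or more. The libraries share depth, scaling and other cell types, so the values are descriptions. For Rorb they were Bmp2k (r = 0.947), Dgkb (0.923) and Add3 (0.91). Bmp2k, a kinase gene, averaged 11.3 TPM at 12m and 6.37 TPM at 18m, and Add3, for the cytoskeletal protein adducin 3, 147 and 94.3 TPM. For Dbx2 they were Gpr37l1 (r = 0.897), an astrocyte receptor, Plpp3 (0.895), a lipid phosphatase, and Tmem129 (0.88). Gpr37l1 shared the low adult mean of Dbx2 at 3m, with 2016 TPM against 3824 at 6m. For Hopx they were Cideb (r = 0.837), Cxcl14 (0.833), a chemokine, and Clu (0.821), the secreted chaperone clusterin. Lhx2 was most like Kifc3 (r = 0.87), Arhgef19 (0.859) and Mgll (0.858), and Fezf2 most like Zfp467 (0.809), Pgm1 (0.803) and Gpt (0.792). For Rfx4 the values were highest for Nrcam (r = 0.914), an adhesion molecule, Tfcp2 (0.887) and Arhgef26 (0.886). Zbtb20 was most like Crtc3 (r = 0.882), Nav2 (0.869) and Glis3 (0.86), and Emx2 least closely matched, with Spag9 (0.752) and Camsap2 (0.732) among its 3.

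Among the 8 factors themselves, Dbx2 and Lhx2 had the highest correlation over the libraries (r = 0.734, and 0.687 on deviations from the age means). Rfx4 and Zbtb20 had the highest value on deviations from the age means (0.718), and Rfx4 and Hopx the lowest over the libraries (-0.152).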

How the data were processed

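Polyadenylated RNA of magnetically isolated cortical astrocytes was measured in 34 libraries of 9 ages. Per the labels' protocols, cDNA was made with the SMART-Seq v4 low-input kit and sequenced on a NovaSeq. The authors deposited TPM for every library in a single table. STAR 2.7.1a, RSEM 1.2.28, Trim Galore 0.6.4, DESeq2 1.36.0 and build mm10 appear, with no roles, among the submitters' processing notes. TPM keep no read counts, so depth is unknown and no counting interval is given. Of 20614 genes in the table, 1 had no values.

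Values were analysed as log2(TPM + 1) for the 14590 genes that reached 1 TPM in 3 or more libraries. limma 3.58.1 (R 4.3.3, statmod 1.5.0) fitted a linear model of age groups, all 34 together, followed by eBayes with trend and robust estimation. Adjustment was by Benjamini-Hochberg across the genes tested. The method was tested on simulated data. Folds beside TPM are ratios of group means. Deep-layer and upper-layer neuron genes used as covariates are called layer-neuron covariates.

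The members and gene lists were chosen with earlier results of these data known. Genes named were all 8 members, the 3 genes most correlated with each among the genes compared, and, per list described, at most 3 of smallest p in P60 vs P7 and in 18m vs 3m. Rora, Bcl11b, Tbr1, Hs3st4, Crym, Dbx1 and Fezf1 were named after values were seen. Some genes that the rule selects are not reported here.

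Alternatives were another pseudocount, no filter or a 5 TPM filter, rescaling, quantile normalization, array weights, a replicate block, covariates, the compared ages alone, libraries of a single range of genes at 0 and leaving out each library. The layer-neuron covariates, the single range and the step count of the compared ages alone were chosen after seeing the data. Promoters are from RefSeq (GRCm38.p6), where all 8 members matched, and positions from GENCODE M21 (GRCm38). Tables were handled with pandas 2.3.3 and numpy 2.4.6 in Python 3.11.15, and figures drawn with matplotlib 3.10.9.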

Additional observations from a re-analysis of the deposited data

Results flagged for a closer look

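A single low library stood apart from the others of its age in 2 of the 40 groups of 4 or 5 libraries examined for the 8 factors, by the gap to its nearest neighbour relative to the range of the group. Chance gives about 1 such case in 20 independent groups, a rate that 2 in 40 does not exceed. The 40 groups reuse the same libraries for all 8 factors and are not independent, so no conclusion is drawn from this count. Rorb in 6m replicate 5 was at 19.34 TPM, where the other 6m libraries held 31.6 to 36.4 TPM. In the same library Rfx4 was at 32.1 TPM, Zbtb20 at 119 TPM, Dbx2 at 406 TPM and Emx2 at 13.3 TPM, each the lowest of its age. The summed level of 10 endothelial genes there, at 3516 TPM, was the highest of its age. Dbx2 in 3m replicate 5 was at 248.37 TPM, where the other 3m libraries held 341 to 377 TPM. Rorb, Fezf2, Rfx4, Emx2 and Zbtb20 were also at their lowest of 3m in that library. It had 1155 genes listed at 0, the fewest of the 34. The part of the endothelial level and of the number of genes at 0 in the low readings was not tested.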

How the results depend on the processing

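The number of factors called was within 1.5 times the reported count under a pseudocount of 0.1, no filter, a 5 TPM filter, quantile normalization, the replicate block and the compared ages alone. A count within that bound can still hold different factors: with each pair of ages fitted alone, 10 step calls passed against 7 reported, and 3 of them were the same. The calls of Dbx2 and Fezf2 in 6m vs 3m and of Rorb and Rfx4 in 18m vs 12m were lost. In other settings the count moved further. For P60 vs P7 (6 reported), 1 was called with neuronal and oligodendrocyte covariates and 3 with layer-neuron covariates, where 3630 and 3460 genes in all were called. For 18m vs 3m (3 reported), limma called 0 with the number of genes at 0 as a covariate and 0 with layer-neuron covariates, with 1 factor in each at an unadjusted p under 0.05, where 297 and 39 genes in all were called. For 18m vs P7 (3 reported), 5 were called after rescaling and 5 with array weights, where 2912 and 6739 genes in all were called. For the 8 steps (7 reported), 12 were called with array weights and 4 with layer-neuron covariates. Leaving out each library gave 4 to 5 factors for P60 vs P7, 2 to 4 for 18m vs 3m, 2 to 3 for 18m vs P7, 5 to 6 in the F test and 5 to 9 over the steps. The replicate block, where numbers did not pair the libraries (mean correlation of deviations 0.0023 over 119 pairs, from -0.44 to 0.46, 26 of them over 0.1), gave 6, 4, 3 and 6 factors and 10 step calls, adding Zbtb20 in 18m vs 3m (-0.38, adjusted p = 0.0388), and turned Lhx2 there to -0.0245.

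Signs turned in these log2 fold changes, none past the threshold in the turned direction. After rescaling Emx2 was 0.0494 in P60 vs P7 and 0.0233 in 18m vs 3m, and Rorb 0.0465 in 18m vs P7. After quantile normalization Emx2 was 0.0754 in 18m vs 3m and Rorb 0.0136 in 18m vs P7. With array weights Hopx was -0.0046 in 18m vs 3m. With the number of genes at 0, Emx2 was 0.0307 in P60 vs P7, and in 18m vs 3m Lhx2 was -0.12, Fezf2 -0.11, Hopx -0.13, Zbtb20 0.31, Lhx9 0.27 and Wdr35 0.0701. With layer-neuron covariates Rfx4 was 0.10, Emx2 0.24, Hopx -0.0676 and Rora 0.0429 in 18m vs 3m, Zbtb20 -0.0325 in 18m vs P7, and Tmem107 -0.0482 and Wdr35 -0.15 in P60 vs P7. Leaving out single libraries took Emx2 from -0.22 to 0.0672 in P60 vs P7 (above 0 without P60 replicate 2) and Lhx2 from -0.0397 to 0.0856 in 18m vs 3m. The cause was not tested. Depth is unknown, so the precision of low values such as those of Emx2 rests on the spread between libraries.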
